A study of Mus musculus with 4 samples.

Results

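T-cell receptor beta chains are assembled from the variable (Trbv), diversity (Trbd) and joining (Trbj) segments described here. They were taken as every gene row whose GENCODE M21 symbol starts with Trbv, Trbd or Trbj, of any biotype, which gave 51 of the 50600 gene rows, namely 35 Trbv, 2 Trbd and 14 Trbj. RNA was sequenced from mouse primary cells of strain C57BL/6NJ labelled T-helper 17, in 4 libraries that form 1 group, biological replicates 1 to 4, with no control group. Per the labels, the libraries have separate biosample records but a single donor record, age is unknown, sex was not collected, and a CD4 T-cell differentiation protocol is linked, while the headers name each input file with a 0-hour tag. Nothing in the labels says that the libraries came from separate animals, so the spread between them may be technical. Replicates 1 to 4 had 29041979, 35018552, 48808978 and 45490373 counted fragments. The cells carried the markers of CD4 T cells, with Cd4 at 969 ± 34.2 TPM (counts per base of exon scaled to sum to 1000000 in each library, SD, n = 4) and all 5 listed markers at 1 TPM or more in every library. Of the Th17 markers, the receptor gene Il23r was near absent, at 0.0728 ± 0.0423 TPM, and the cytokine genes Il17a and Il17f were at 4.22 ± 1.53 and 9.83 ± 3.10 TPM. Markers of other lymphocytes and myeloid cells were low, with summed levels over the libraries of 39.1 to 46.1 TPM for CD8 T cells, 9.06 to 12.3 for gamma delta T cells, 0.109 to 0.524 for NK and NKT cells, 2.51 to 3.73 for B cells and 1.55 to 2.73 for myeloid cells. Of the CD8 level nearly all was Cd8b1, at 42.9 ± 2.88 TPM, whereas Cd8a was at 0.150 ± 0.0772 TPM. The gamma delta sum covers 4 of 7 listed markers, as Trgc1, Trgc2 and Trgc4 were not matched to a gene row. Most of it was Trdc, at 9.37 ± 1.12 TPM.

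In a developing T cell the recombinase RAG1/RAG2 cuts the beta locus beside the segments and joins a D to a J segment, then a V segment to that DJ unit. The joined exon is spliced to a constant exon, Trbc1 or Trbc2, and the V segment, together with the junction it forms, shapes which peptides and MHC molecules the receptor can bind. A mature polyclonal T-cell population therefore expresses many V segments side by side, each from a different set of clones.

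On mm10 the members lie on chromosome 6 between 40891229 and 41558452, a span of 667 kb. Trbv1 stands 155 kb upstream of Trbv2, the Trbv2 to Trbv30 block ends 251 kb upstream of Trbd1, and each D segment is followed by its own J cluster of 7 segments and a constant gene. Trbv31 lies 13.8 kb downstream of Trbj2-7 on the minus strand, opposite to all the other members. The 2 clusters are thus Trbd1 with Trbj1-1 to Trbj1-7 and Trbc1, then Trbd2 with Trbj2-1 to Trbj2-7 and Trbc2.

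The D segments, shown whole because the results compare them directly, are G-rich runs of 12 and 14 bases. The sequences are those of the GENCODE M21 reference transcripts, plus strand, 5′ to 3′, and not read from these libraries.
Trbd1 (chr6:41533201-41533212): GGGACAGGGGGC
Trbd2 (chr6:41542163-41542176): GGGACTGGGGGGGC

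The next set shows J segments with and without the coding stretch for the phenylalanine-glycine motif that is typical of J segments, searched as TTNGGNNNNGG on the coding strand, with the match in capitals. Trbj1-5 and Trbj2-7 are abundant members that hold it, and Trbj1-6, Trbj1-7 and the annotated pseudogene Trbj2-6 do not.
Trbj1-5 (chr6:41535084-41535133): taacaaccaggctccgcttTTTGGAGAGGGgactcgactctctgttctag
Trbj1-6 (chr6:41535554-41535606): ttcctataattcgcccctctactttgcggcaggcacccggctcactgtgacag
Trbj1-7 (chr6:41535642-41535687): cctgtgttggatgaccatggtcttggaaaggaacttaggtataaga
Trbj2-6 (chr6:41543598-41543645): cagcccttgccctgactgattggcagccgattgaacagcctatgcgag
Trbj2-7 (chr6:41543810-41543856): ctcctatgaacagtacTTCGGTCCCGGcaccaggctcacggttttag
The motif was present in 11 of the 13 J segments annotated as functional and in 0 of the 1 pseudogene. Among 32851 RefSeq promoter windows of 48 bases (GRCm38.p6), 1.31% held it on 1 strand.

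The last 30 bases of V transcripts are shown for the 4 segments with the most counts, the inverted Trbv31 and the most abundant pseudogene, Trbv24, because this end carries the conserved cysteine and joins to D. Capitals mark TGTGCNAGC, searched on the coding strand. Each is written on the gene's own strand, with the span of the whole gene (mm10).
Trbv3 (gene at chr6:41048290-41048828, plus strand): gtgtacttcTGTGCCAGCagcttagccaca
Trbv13-2 (gene at chr6:41121396-41121832, plus strand): catcagtgtacttcTGTGCCAGCggtgatg
Trbv1 (gene at chr6:40891229-40891885, plus strand): cagaaccttgtactgcacctgcagtgcaga
Trbv16 (gene at chr6:41151740-41152230, plus strand): agcggtgtatcttTGTGCAAGCagcttaga
Trbv31 (gene at chr6:41557691-41558452, minus strand): ctctggcttctacctctgtgcctggagtct
Trbv24 (gene at chr6:41218091-41218557, plus strand): agcactgtagctcTGTGCCAGCagtctgta
The 9 letters were found at the end of 17 of 22 functional V segments and 4 of 13 pseudogenes, against 0.0396% of promoter windows of 30 bases on 1 strand. Trbv1, Trbv20 and Trbv31, all among the 12 with the most counts, were without it, and the pseudogene Trbv24 had it.

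Counts rest on fragments assigned to exactly 1 gene. A fragment touching exons of 2 genes, such as a J segment and a constant exon of the same spliced transcript, may not have been counted. The recorded counting command sets no option for such fragments, and how each was assigned cannot be told from the counts. Trbv, Trbd and Trbj counts may therefore all leave out fragments that also touched an exon of another gene on the same strand. Fragments mapping to several places were not counted either, but of the 35 Trbv transcripts only Trbv12-2, Trbv12-3, Trbv13-2 and Trbv13-3 shared any 50-base stretch with a transcript of a gene that does not overlap them, in 0.344% to 1.24% of their 50-base stretches. The deposited annotation matters more for Trbv4 and Trbv5. Their second exons, of 295 and 292 bases, lie wholly inside same-strand exons of the long non-coding RNA gene 5830405F06Rik. Fragments within those exons fit both genes. Counts of Trbv4 and Trbv5 thus rest on fragments that reach their first exons, of 98 and 76 bases, and are lower limits. 5830405F06Rik itself was at 4.39 ± 0.450 TPM.

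Of the 51 segments 40 (78.4%) reached 1 TPM in every library, against 23.2% of all 50600 gene rows. The median segment was at 200 TPM, with class medians of 83.6 in Trbv, 546 in Trbj and 1998 TPM in Trbd. TPM of the short Trbj and Trbd rows depends on how length is counted, as given below. The median over all gene rows was 0 TPM, and over rows at 1 TPM or more in every library it was 28.1 TPM. The split followed the annotation in V segments. All 22 functional Trbv reached the level, from 3.48 TPM for Trbv21 to 548 TPM for Trbv13-2, whereas 2 of 13 Trbv pseudogenes did. Of those pseudogenes 7 had 0 counts in all 4 libraries, and a count of 0 allows up to 0.0615 to 0.103 CPM (counts per 1000000 counted fragments). Trbv24 was at 16.7 ± 3.58 TPM, with 47, 74, 63 and 74 counts in replicates 1 to 4, and the next pseudogene, Trbv12-3, at 2.02 ± 0.728 TPM. Pseudogenes together held 0.406, 0.546, 0.288 and 0.497% of Trbv counts, a mean of 0.434% ± 0.114 (SD, n = 4). Trbv8, a pseudogene with 0 counts, is covered over all 285 of its bases by another gene row, so its fragments could not be counted.

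**Figure D1:**
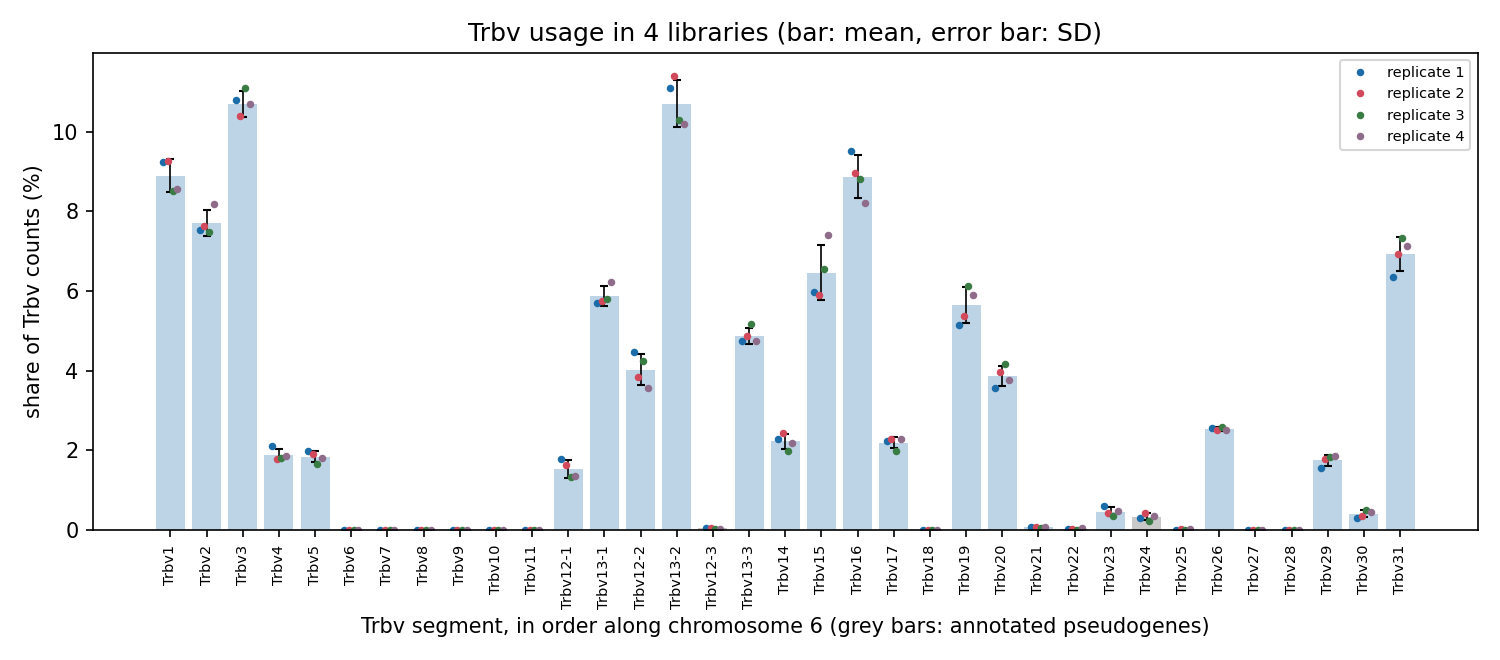
Share of Trbv counts (percent, y axis) for the 35 Trbv segments in their order along chromosome 6 (x axis), with bars for the mean, error bars for the SD and points for the 4 libraries. Trbv3 and Trbv13-2 stand highest at a mean of 10.7% each, and the 13 pseudogenes lie near 0.

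Counted V usage was uneven but broad, and its order holds for counted fragments, with Trbv4 and Trbv5 at their lower limits. The 5 V segments with the most counts, Trbv3, Trbv13-2, Trbv1, Trbv16 and Trbv2, held 47.0% ± 1.08 of Trbv counts and the first 12 held 84.6% ± 0.682 (SD, n = 4). If the 22 functional segments were used alike, each would hold 4.55%. The inverse Simpson index, the number of equally used segments that would give the same evenness, was 14.4, 14.5, 14.5 and 14.6 in replicates 1 to 4. The same 12 segments were the first 12 in every library, as were the first 7 and the first 5. Per countable base, meaning the bases that no other gene row covers, Trbv5 ranked 2 with 18.8 counts over the 4 libraries and Trbv4 ranked 6 with 15.1, beside 24.7 for Trbv13-2, 18.7 for Trbv3 and 10.9 for Trbv2. On that scale 4 of the first 5 and 10 of the first 12 were shared with the order by counts, and Trbv12-2 and Trbv19 fell to ranks 13 and 14. The values of Trbv4 and Trbv5 on it rest on 98 and 76 bases. A fragment longer than such an exon may be counted when it touches it, so these values may be too high beside those of longer segments. Their ranks per countable base are thus not a measure of their place in V usage, and the ranks of the segments below them depend on this.

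Trbv3 and Trbv13-2 shared the top. Trbv3 held 10.8, 10.4, 11.1 and 10.7% of Trbv counts in replicates 1 to 4. Trbv13-2 held 11.1, 11.4, 10.3 and 10.2%. Each led in 2 of 4 libraries and their ranges overlapped, so the count shares do not order them. Per length the order was clearer, because Trbv13-2 has the shorter transcript, and it held 12.6% of summed Trbv TPM against 9.43% for Trbv3.

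Trbv1 and Trbv16 came next and also overlapped. Trbv1, the segment farthest from the J clusters, held 9.23, 9.27, 8.51 and 8.57%. Trbv16 held 9.51, 8.96, 8.80 and 8.21%. Both lay below Trbv13-2 and above Trbv2 in every library, with ranges that did not overlap either of them. Trbv2 held 7.54, 7.64, 7.49 and 8.18%, a range clear of its neighbours on both sides.

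The inverted segment Trbv31 held 6.36, 6.92, 7.32 and 7.13% of Trbv counts. Trbv15 held 5.98, 5.91, 6.55 and 7.40%, with replicate 4 high. The 2 ranges overlapped, and Trbv31 was the higher in 3 of 4 libraries. From rank 6 to rank 9 each segment's range overlapped that of the next.

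Trbv13-1 held 5.71, 5.74, 5.80 and 6.23%, and Trbv13-3 held 4.74, 4.86, 5.17 and 4.74%. With Trbv13-2 they form a 3-member family that held 21.5% ± 0.375 of Trbv counts, from 21.2 to 22.0% over the libraries. The family share thus moved less than the share of Trbv13-2 alone, whose SD was 0.592 percentage points. Trbv19 held 5.15, 5.37, 6.13 and 5.90%. Trbv12-2 held 4.46, 3.85, 4.25 and 3.57%, and the 3-member Trbv12 family, its near-silent pseudogene Trbv12-3 included, held 5.60% ± 0.551. Trbv20 held 3.56, 3.97, 4.16 and 3.76% and overlapped Trbv12-2, whereas the next segment, Trbv26, lay clear below at 2.51 to 2.58%.

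The other 10 functional V segments had mean shares of 0.0771 to 2.54%. After Trbv26, whose share had the smallest spread relative to counting, came Trbv14 at 2.23% ± 0.192 and Trbv17 at 2.20% ± 0.148, whose ranges overlapped. Trbv4 and Trbv5, at 1.89% ± 0.150 and 1.84% ± 0.141, carry the counting limit given above, and Trbv29 and Trbv12-1 were at 1.76% ± 0.139 and 1.53% ± 0.219. A gap followed, with no range shared between Trbv12-1 and the next segment. Of the 10, Trbv23, Trbv30 and Trbv21 lay under 1%, at 0.466% ± 0.107, 0.412% ± 0.0916 and 0.0771% ± 0.0127. Trbv21, annotated as functional, had 11, 14, 16 and 19 counts, which is fewer than the pseudogene Trbv24 in every library. The mean share of Trbv3 was 139 times that of Trbv21. Across the 22 functional segments, Spearman's rho between position along the plus strand and mean share was -0.421, and -0.527 without Trbv31, a description over segments that share libraries and one locus, with Trbv4 and Trbv5 at their lower limits.

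Among J segments the annotated pseudogene was at the level of the functional Trbj2-1 to Trbj2-5, unlike the V pseudogenes. Trbj2-6, the J pseudogene, held 5.01, 4.81, 5.18 and 5.39% of Trbj counts. Upstream of it, the functional Trbj2-1 to Trbj2-5 had mean shares of 4.60 to 5.44%, so it lay inside their range. Trbj2-7, next to it downstream, was higher, at a mean of 9.36%. Trbj1-6 and Trbj1-7, which lack the motif shown above, were at 12.2 ± 1.59 and 8.50 ± 1.27 CPM, and Trbj1-6 had the highest mean of all 14. These levels describe fragments assigned to 1 J row and are not a measure of which J segments the spliced receptor transcripts carried.

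**Figure D2:**
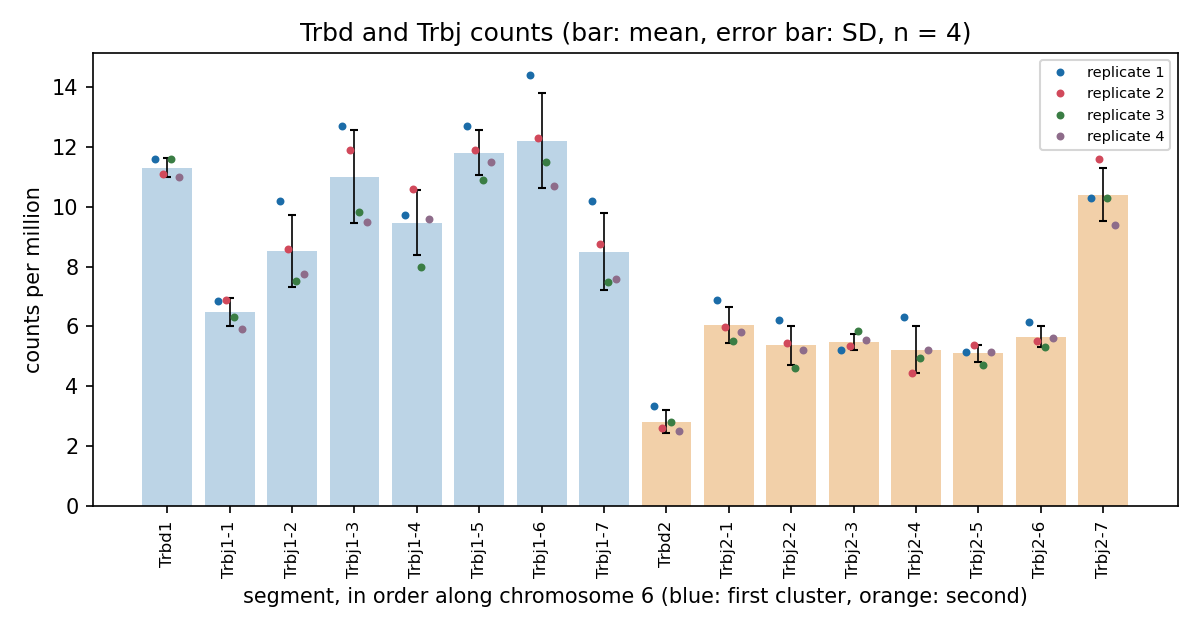
Level in CPM (y axis) of the 2 Trbd and 14 Trbj segments in their order along chromosome 6 (x axis), with bars for the mean, error bars for the SD and points for the 4 libraries. Trbd1 stands at 11.3 and Trbd2 at 2.83 CPM, and the pseudogene Trbj2-6 is level with Trbj2-1 to Trbj2-5 and below Trbj2-7.

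The first cluster exceeded the second in both D and J counts, as counts of fragments assigned to a single gene row. The Trbj1 rows lie between 41533864 and 41535687 and the Trbj2 rows between 41542754 and 41543856, closer together. Fragments touching more than a single row may thus have been left out unequally in the clusters, which was not tested. Trbd1 had 336, 389, 567 and 499 counts in replicates 1 to 4. Trbd2 had 97, 92, 138 and 114. The groups of values did not overlap, and the log2 ratio of Trbd2 to Trbd1 was -1.78, -2.07, -2.03 and -2.12, with an SD of 0.15 (n = 4). The mean was a 4.00-fold lower count for Trbd2.

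The 7 Trbj1 segments together had 2228, 2486, 3002 and 2843 counts in replicates 1 to 4. The 7 Trbj2 segments had 1343, 1529, 2014 and 1907. The Trbj1 sum was the higher in every library and made up 61.0% ± 1.34 of Trbj counts. The log2 ratio of the Trbj2 to the Trbj1 sum was -0.73, -0.70, -0.58 and -0.58, a mean of -0.65 ± 0.08. For both ratios the exact two-sided sign-flip permutation test gave p = 0.125 (adjusted p = 0.125 over 3 ratios tested), the smallest that 4 libraries allow, with the same sign in 4 of 4 libraries.

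The constant genes went the other way. Trbc2, of the second cluster, exceeded Trbc1 by a log2 ratio of 0.52, 0.44, 0.42 and 0.65, and this pair was not tested. Their coding sequences are closely alike, and fragments that fit both were not counted.

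**Figure D3:**
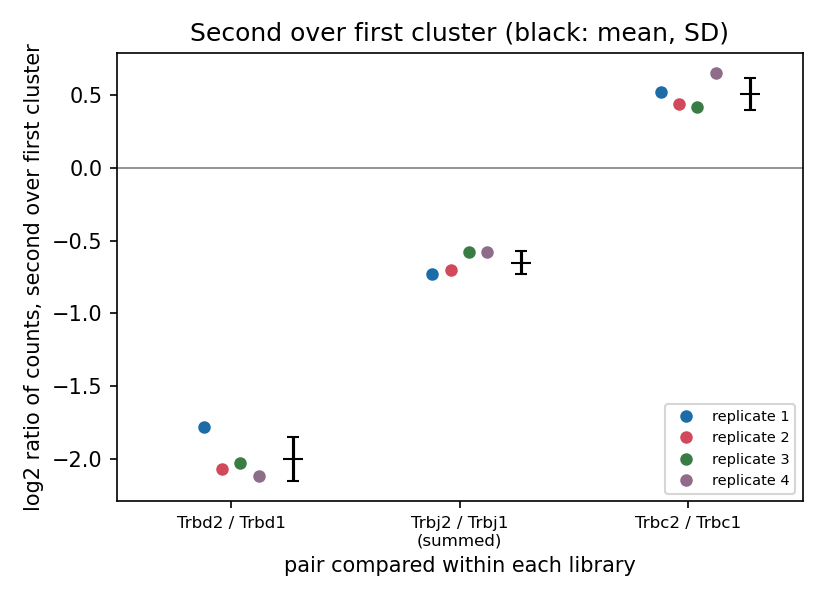
Log2 ratio of counts of the second over the first cluster (y axis) for the D segments, the summed J segments and the constant genes (x axis), with a point per library and the mean and SD in black. The D and J ratios lie below 0 in all 4 libraries, at a mean of 4.00-fold lower and of -0.65, and the constant gene ratio lies above 0, at a mean of 0.51.

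Within the clusters single segments stood out. Trbj2-7, the last of the second cluster, had 299, 405, 502 and 427 counts in replicates 1 to 4, above every other Trbj2 segment in every library. In the first cluster Trbj1-1 was the lowest, at 5.57, 6.00, 6.14 and 5.66%, and Trbj1-5 was the second highest by mean share, with 369, 418, 532 and 522 counts. Trbj1-6 had 418, 432, 561 and 487 counts, more than Trbj1-5 in 3 of 4 libraries. In no library did Trbj1-3 or Trbj1-4 have more counts than Trbj1-5 or Trbj1-6. Trbj1-3 held 10.3, 10.4, 9.57 and 9.09%, and Trbj1-4 held 7.90, 9.22, 7.76 and 9.18%. Trbj1-2, at 8.29, 7.50, 7.32 and 7.41%, and Trbj1-7, at 8.29, 7.62, 7.28 and 7.26%, were close to each other in every library. The remaining Trbj2 segments lay near 5%, with Trbj2-1 at 5.44% ± 0.181, Trbj2-3 at 4.98% ± 0.639, Trbj2-2 at 4.82% ± 0.245, Trbj2-4 at 4.70% ± 0.559 and Trbj2-5 at 4.60% ± 0.302. The highest mean share in the J class was 2.39 times the lowest, against 139 times among functional V segments. Spearman's rho between order and counts was 0.429 in the first and 0.143 in the second cluster, over 7 segments each.

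V segments held most of the counts. Summed Trbv counts were 517, 481, 534 and 460 CPM in replicates 1 to 4. Summed Trbj counts were 123, 115, 103 and 104 CPM, and summed Trbd counts 14.9, 13.7, 14.4 and 13.5 CPM. Replicate 1 was the highest in Trbj and in Trbd, whereas replicate 3 was the highest in Trbv. For comparison, the Trbc pair had 935 to 1031 and the alpha-chain V and J segments together 208 to 248 CPM.

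Per summed kilobase of exon the order of V and J turned. The log2 ratio of Trbv to Trbj was -2.11, -2.11, -1.80 and -2.04, a mean of -2.01 ± 0.15 (exact sign-flip permutation p = 0.125, 4 of 4 libraries). That value depends on how length is counted, since a fragment much longer than a J exon is counted when it touches it. With 200 bases added to each segment's length the ratio was -0.32, and with the same 200 bases and functional segments alone it became positive, at 0.23. The levels of V and J classes are thus not ordered by these data. The same holds for the 3291 ± 63.9 TPM of Trbd1, which rests on a length of 12 bases.

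V usage profiles lay close together. The share of Trbv counts that would have to move to turn one library's profile into another's ran from 2.46 percentage points, between replicates 1 and 2, to 4.96, between replicates 1 and 4. Counting alone would give 1.58 to 1.91 points for these pairs. In J usage the distances were 3.25 to 4.80 points against 2.87 to 3.25 from counting.

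For the 23 V segments with at least 10 counts in every library, the median SD over libraries was 1.82 times the SD that counting gives, and for the 14 J segments it was 1.14 times. The V segments over 2 times numbered 8, namely Trbv12-1, Trbv12-2, Trbv13-2, Trbv15, Trbv16, Trbv19, Trbv23 and Trbv31, and no J segment was over 2 times. For a given relative spread this ratio rises with the class total. Totals per library were 15008 to 26080 counts in Trbv and 3571 to 5016 in Trbj, so the ratios do not compare the classes directly. Trbv15 had the largest ratio, 3.86, with an SD of 0.691 percentage points, and Trbv26 the smallest, 0.349. In relative terms the median coefficient of variation was 7.67% in V segments (1.57 to 24.5%) and 6.08% in J segments (2.77 to 12.8%).

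**Figure D4:**
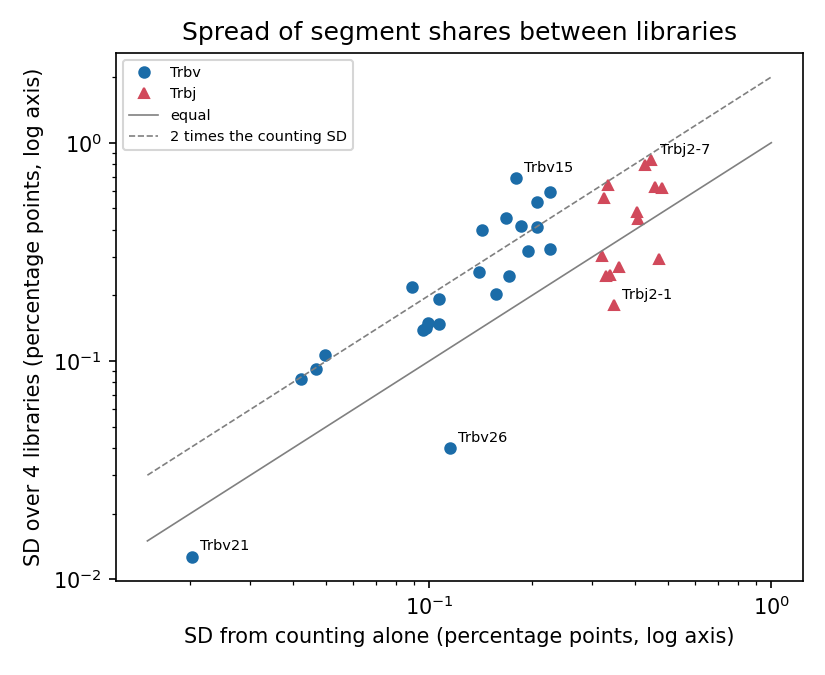
SD of each segment's share over the 4 libraries (y axis, percentage points, log axis) against the SD from counting alone (x axis, percentage points, log axis), for V segments (circles) and J segments (triangles) with at least 10 counts in every library. Trbv15 lies farthest above the line of 2 times the counting SD, and Trbv26 lies below the line of equality.

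None of the 39 segments that passed the filter on low counts was called as varying between libraries beyond the trend for their abundance (edgeR quasi-likelihood dispersion, smallest adjusted p = 0.961, with 0 at an unadjusted p under 0.05). Of all 12464 genes tested 24 were called, 0.193%. A set of 39 without a call is near that share and sets the segments apart in nothing. DESeq2 also marked 0 of the 39 as dispersion outliers. The test had little reach for small differences. On simulated counts with 1 of 4 libraries changed, a 2-fold change was recovered in 0% of genes. A 4-fold change was recovered in 100%, with 5 false calls. The V shares above can thus differ between libraries without being called. The changed genes were drawn from well-counted genes only, so the 100% does not cover segments with few counts, such as Trbv21.

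Genes that act with or on the segments were read from lists. The 7 receptor partner genes, on the list for the chains that pair with or signal for the beta chain, were all at 1 TPM or more in each library. Highest were the constant genes Trac (3069 ± 37.3 TPM), Trbc2 (2932 ± 88.3 TPM) and Trbc1 (1909 ± 137 TPM). Cd3d, a signalling chain of the receptor complex, was at 806 ± 18.7 TPM. Of 13 recombination and pre-receptor genes 10 reached that level. The 3 others were Rag1 and Rag2, the recombinase genes, and Ptcra, the surrogate alpha chain of immature thymocytes, each with 0 counts in all 4 libraries, under the same limit as the silent V pseudogenes. Dntt, which encodes the terminal transferase that adds bases at V-D-J junctions in the thymus, was at 25.7 ± 2.07 TPM, with 482, 481, 774 and 746 counts in replicates 1 to 4. The general DNA repair genes Xrcc5 and Prkdc, which serve end joining in all cells, were at 49.2 ± 5.98 and 44.1 ± 2.40 TPM.

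Of 14 listed protein-coding genes in or beside the beta locus, which include the trypsinogen genes between the V block and Trbd1, 1 reached 1 TPM in every library. This was Ephb6, a receptor-like gene downstream of the locus, at 79.8 ± 11.1 TPM. The highest of the others on the list was Prss2, with 12 counts over the 4 libraries. The non-coding gene 5830405F06Rik, whose level is given above, was not on this list.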

How the data were processed

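The authors deposited raw counts of fragments for each gene in 4 total RNA-seq libraries (the linked library protocol is titled as poly(A)+), made per the file headers with featureCounts 1.4.6-p4 on GENCODE M13 exons (mm10), reverse-stranded, with both ends mapped. The headers name star2 alignments, with no aligner version. The authors' deposited tables also give gene length in bases. Gene IDs, versions removed, were given GENCODE M21 symbols. All 51 segments were matched, with identical coordinates, and 224 of 50600 rows had no symbol. Shares are percentages of the class counts per library, and TPM was computed here from counts and deposited lengths. The counting SD is the multinomial one. A count of 0 allows up to 3 counts, for counting error only. Excess variability was tested with edgeR 4.0.16 in R 4.3.3 (intercept only, TMM, filterByExpr, robust prior, one-sided F test, adjusted p under 0.05), tested on simulated data. DESeq2 1.42.0, other pseudocounts (0.1 and 5 in place of 1), lengths, thresholds, shares by TPM and leaving out each library were alternatives, with shares per countable base (deposited length minus bases covered by another gene row on the strand) added after the data were seen. Python 3.11.15 was used otherwise. Named segments were all Trbd and Trbj, the 12 Trbv of highest share, and pseudogenes at 1% or more of their class. Other segments are named after their values were seen. The segments and lists were chosen with earlier results of these data known. The reference sequence is of C57BL/6J, and the cells were C57BL/6NJ. Recombination signal sequences beside the segments were not analysed here.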

Additional observations from a re-analysis of the deposited data

Results flagged for a closer look

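Of 53 quantities checked for a library far from the other 3, 3 stood out. The limit used marks about 1 in 20 by chance for independent quantities on a continuous scale. That rate is no yardstick here, since shares of 1 class depend on each other and some rows hold single counts. Trbv13-1 held 6.23% of Trbv counts in replicate 4 and 5.71 to 5.80% in the others, a gap of 0.833 of the whole range, just past the limit of Dixon's test. The pseudogenes Trbv6 and Trbv9 were at 0.0143 and 0.00478% in replicate 4, which is 3 counts and 1 count, and at 0 in the others. With 0 in the others, any count in replicate 4 makes the gap the whole range.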

How the results depend on the processing

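The exact test cannot pass its threshold with 4 libraries, so only directions and sizes of ratios can be compared. Trbv over Trbj per length turned to 0.23 with functional segments and 200 added bases, a choice made after the data were seen, as the fragment length is not known. The effective number of Trbv segments was 16.8 by the exponential of Shannon entropy, 14.6 by shares of summed TPM and 15.5 by shares per countable base, the last also chosen after the data were seen. Segments called excess variable stayed at 0 in the DESeq2, filter, prior and single-library alternatives. Segments at 1 TPM numbered 40, and 38 to 41 under other thresholds. Over 28 named shares, 12 moved by more than 1 SD when shares of TPM were used, and 0 did when any 1 library was left out. With functional segments alone as the denominator 4 of 25 moved, namely Trbj1-1, Trbj1-5, Trbj2-1 and Trbj2-2, and per countable base 6 of 12 Trbv moved. The first 12 Trbv were the same 12 by TPM, which uses the whole deposited lengths, and 10 of them were among the first 12 per countable base. The latter scale may overstate Trbv4 and Trbv5, as given above. Depth limits the pseudogenes, where single counts set the value. No paired analysis was possible because there is 1 group.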
